A study of Mus musculus with 36 samples.

Results

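The genes described here are 10 regulators and targets of canonical Wnt signaling, measured in mouse jejunal organoids exposed to medium conditioned by senescent or quiescent fibroblasts, or to Wnt5a. They were chosen by name, as genes that intestinal cells are known to switch on through β-catenin, and each symbol was matched to the Ensembl identifier used in the count files. All 10 were among the 52636 genes listed there. A mean of 0.5 CPM (the counts of a gene scaled to a common library total) over all libraries was required to call a gene detected, and 8 genes reached it: Axin2, Rnf43, Znrf3, Nkd1, Sp5, Tcf7, Myc and Cd44. Notum averaged 0.382 CPM and Lef1 0.114 CPM, and both are reported as not detected.

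The organoids came from crypts of C57BL/6 mice, with no genetic change named in the labels, and all libraries were made from bulk organoid RNA. The study used 6 conditions with 6 libraries each. Complete media + IgG was the commercial medium IntestiCult with a control antibody. QCM + IgG and SCM + IgG replaced part of it with medium conditioned by mouse embryonic fibroblasts that were quiescent or had been made senescent, and SCM + anti-Ptk7 had an antibody against Ptk7 in place of IgG. Wnt5a + IgG and Wnt5a + anti-Ptk7 were complete media with Wnt5a protein and either antibody. No condition had anti-Ptk7 in complete media or in QCM, so the antibody was compared with IgG only within SCM and within Wnt5a. The crypts came from 6 mice, but the labels do not say which library came from which mouse. The spread between libraries of a condition is taken as the error of each comparison. It includes any spread between mice, so fits with replicate number as a block are an alternative. In bulk RNA, fewer cells that express a gene and less of its RNA per cell cannot be told apart.

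Cells without a Wnt signal continually break down β-catenin. Once Frizzled and LRP receptors at the membrane bind a canonical Wnt, β-catenin builds up, enters the nucleus and switches on genes through TCF and LEF factors. Crypt stem cells depend on this program, and several of the genes it switches on act back on the pathway and dampen it. Wnt5a is mostly studied as a ligand that does not work through β-catenin, and Ptk7 is a membrane protein linked to that branch.

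The genes fall into 4 roles, with positions in GENCODE M21 on GRCm38. Axin2 (ENSMUSG00000000142, chr11:108920349-108950783, plus strand) encodes a scaffold of the complex that destroys β-catenin. Nkd1 (ENSMUSG00000031661, chr8:88521354-88594884, plus strand) encodes a Dishevelled-binding inhibitor, and Notum (ENSMUSG00000042988, chr11:120653788-120661175, minus strand) encodes a secreted enzyme that removes the lipid from Wnt ligands. Rnf43 (ENSMUSG00000034177, chr11:87662722-87735539, plus strand) and Znrf3 (ENSMUSG00000041961, chr11:5276324-5444847, minus strand) encode related membrane ubiquitin ligases that clear Frizzled receptors from the cell surface. Sp5 (ENSMUSG00000075304, chr2:70474923-70477729, plus strand), Tcf7 (ENSMUSG00000000782, chr11:52252371-52283014, minus strand) and Lef1 (ENSMUSG00000027985, chr3:131110471-131224356, plus strand) encode transcription factors, Tcf7 and Lef1 being DNA-binding partners of β-catenin. Myc (ENSMUSG00000022346, chr15:61985391-61990374, plus strand) encodes a growth-promoting transcription factor. Cd44 (ENSMUSG00000005087, chr2:102811141-102901665, minus strand) encodes a hyaluronan receptor of the crypt epithelium. In that annotation the exons of Axin2, Notum and Lef1 overlap antisense genes. The Axin2 partner Gm11670 held 493 counts over all libraries against 13866 for Axin2, and whether strand was used in counting is not given in the sources used here.

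Promoter windows are shown for genes that were higher with Wnt5a. RefSeq windows (GRCm38.p6) of the 250 bases before the start were at hand for 7 of the 10 genes. They were searched on both strands for the TCF-binding words CTTTGAT and CTTTGAA, which differ in their last letter and so never match at the same base of a strand. CTTTGAT was present in 3.21% of all 32851 windows, CTTTGAA in 4.46% and at least 1 of them in 7.48%. Among the 12 windows of the 7 genes, 1 held either word, close to that background share. That was the Sp5 window (chr2:70474673-70474922, plus strand), with CTTTGAT on the coding strand from 104 to 98 bases before the start. The Sp5 window is printed with those of Rnf43 (chr11:87662837-87663086, plus strand), Nkd1 (chr8:88527383-88527632, plus strand) and Cd44 (chr2:102901666-102901915, minus strand), the other genes called with Wnt5a for which a window was at hand. Rnf43 had 2 windows, and the upstream one is shown. Each runs 5′ to 3′ on the strand of its gene and ends at the base before the RefSeq start, which for Nkd1 and Rnf43 lies inside the GENCODE gene, and capitals mark the word found.
Sp5: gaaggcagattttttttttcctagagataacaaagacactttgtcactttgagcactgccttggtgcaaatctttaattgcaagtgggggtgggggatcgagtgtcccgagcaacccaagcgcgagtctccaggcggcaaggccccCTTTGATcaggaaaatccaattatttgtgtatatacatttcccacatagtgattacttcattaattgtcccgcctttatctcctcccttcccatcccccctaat
Rnf43: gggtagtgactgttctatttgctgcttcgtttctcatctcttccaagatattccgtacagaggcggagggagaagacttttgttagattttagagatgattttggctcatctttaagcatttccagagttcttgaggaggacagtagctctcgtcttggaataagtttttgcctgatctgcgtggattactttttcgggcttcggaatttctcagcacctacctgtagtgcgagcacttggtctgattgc
Nkd1: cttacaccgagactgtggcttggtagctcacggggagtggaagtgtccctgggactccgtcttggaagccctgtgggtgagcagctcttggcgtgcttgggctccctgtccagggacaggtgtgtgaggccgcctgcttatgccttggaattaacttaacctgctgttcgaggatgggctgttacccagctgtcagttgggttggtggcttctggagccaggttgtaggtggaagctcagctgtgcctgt
Cd44: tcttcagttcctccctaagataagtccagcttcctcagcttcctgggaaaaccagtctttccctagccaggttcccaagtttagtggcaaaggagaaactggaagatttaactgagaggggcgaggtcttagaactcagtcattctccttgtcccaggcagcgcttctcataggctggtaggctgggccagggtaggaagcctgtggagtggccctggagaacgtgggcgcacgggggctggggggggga
In this window Rnf43 had a GC content of 44.4%, Sp5 46.0%, Cd44 56.4% and Nkd1 58.4%. The absence of these letters from a window says nothing about sites elsewhere.

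Library totals ranged from 9581589 to 21029769 counts (median 13490071). SCM + IgG replicate 1 stood farthest from the mean of its condition, at a distance of 85.7 in log2 CPM over all genes tested, against 45.7 to 80.02 for the other libraries. Calls in SCM + IgG are given with and without it. Library number 1 held the highest Myc level in 5 of 6 conditions, and libraries numbered 1 deviated together. Epithelial markers were high in every condition, at 5585 to 7280 summed CPM over 6 genes in complete media + IgG. Markers of fibroblasts summed to at most 1.32 CPM over 7 genes, with Col3a1, Dcn and Thy1 at 0 in all libraries. T lymphocyte markers, with Cd4 and Cd8a at 0, reached at most 1.79 CPM.

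**Figure D1:**
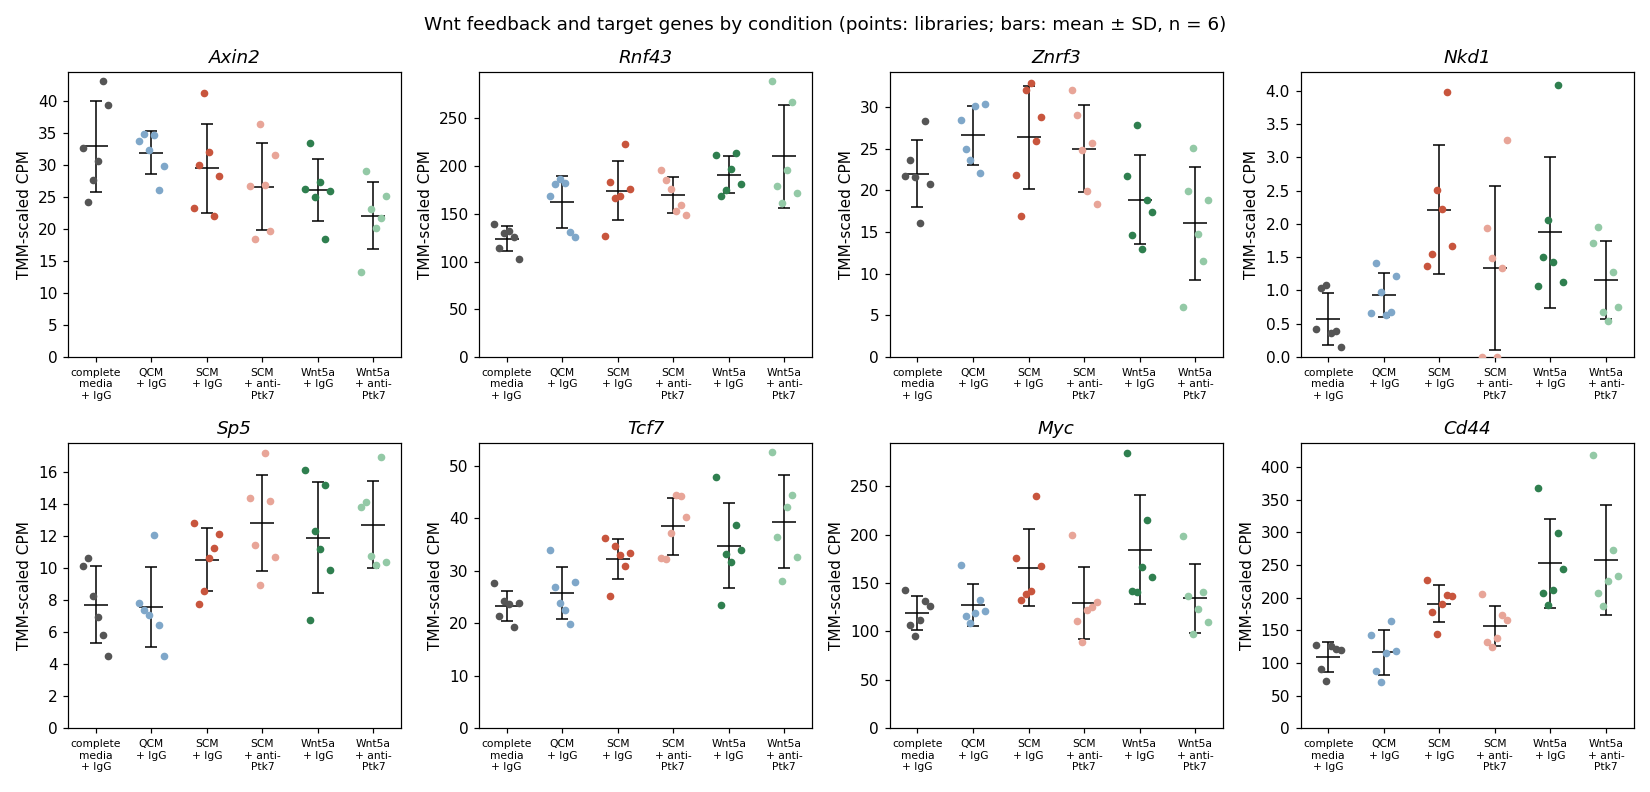
TMM-scaled CPM of the 8 detected genes (vertical axes, linear from 0) in the 6 conditions (horizontal axes), with a point for each library and the mean ± SD of 6 libraries as bars. Cd44 sits highest in both Wnt5a conditions, Axin2 is highest in complete media + IgG, and Nkd1 is at 0 in 2 SCM + anti-Ptk7 libraries.

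The level of the genes differed widely before any treatment. Scaled by coding length, as CPM per kb in complete media + IgG, Myc was highest at 87.4 ± 12.9 (SD, n = 6), followed by Rnf43 at 52.7 ± 5.55 and Cd44 at 46.8 ± 9.78. Tcf7 followed at 25.7 ± 3.17, and then came Axin2 at 13.1 ± 2.83. Znrf3 at 7.72 ± 1.40 and Sp5 at 6.46 ± 2.01 were lower still, and Nkd1 at 0.406 ± 0.275 was close to the limit of these libraries. The ranges of 1 SD around the mean overlapped for Rnf43 and Cd44, and likewise for Znrf3 and Sp5. Scaled by exon length in place of coding length, Myc was 43.8, Rnf43 18.9, Cd44 16.2, Tcf7 8.90 and Axin2 5.98, and Sp5 at 3.67 then stood above Znrf3 at 2.79. All other values in the text are TMM-scaled CPM, which compare a gene between conditions but not with another gene. When the 6 conditions were ordered by the mean of a gene, every pair of neighbours overlapped in its libraries, in 5 of 5 pairs for each of the 10 genes.

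Against complete media + IgG, part of the set was higher with SCM and with Wnt5a. A gene was called changed when edgeR gave a Benjamini-Hochberg adjusted p below 0.05 over all 15497 genes tested and a change above 1.5-fold. With SCM + IgG, 2 of the 8 detected genes were called, Cd44 and Nkd1, both higher, where 6.08% of all genes tested were called and 4.96% were called higher. With Wnt5a + IgG, 5 of 8 were called, all higher: Cd44, Nkd1, Rnf43, Myc and Sp5, where 10.2% of all genes were called and 8.29% were called higher. With QCM + IgG, 0 of 8 were called by edgeR, where 0.374% of all genes were, and 1 of the 8, Rnf43, had an unadjusted p below 0.05, as did 12% of all genes. DESeq2 and voom with limma also called 0 here and in each comparison below for which edgeR called 0. Over the 8 genes, the log2 fold change had a median of 0.12 with QCM, 0.47 with SCM and 0.63 with Wnt5a, while over all genes tested it was 0.02, 0.01 and 0.01. These comparisons share the same 6 control libraries, so they are not independent of each other.

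**Figure D2:**
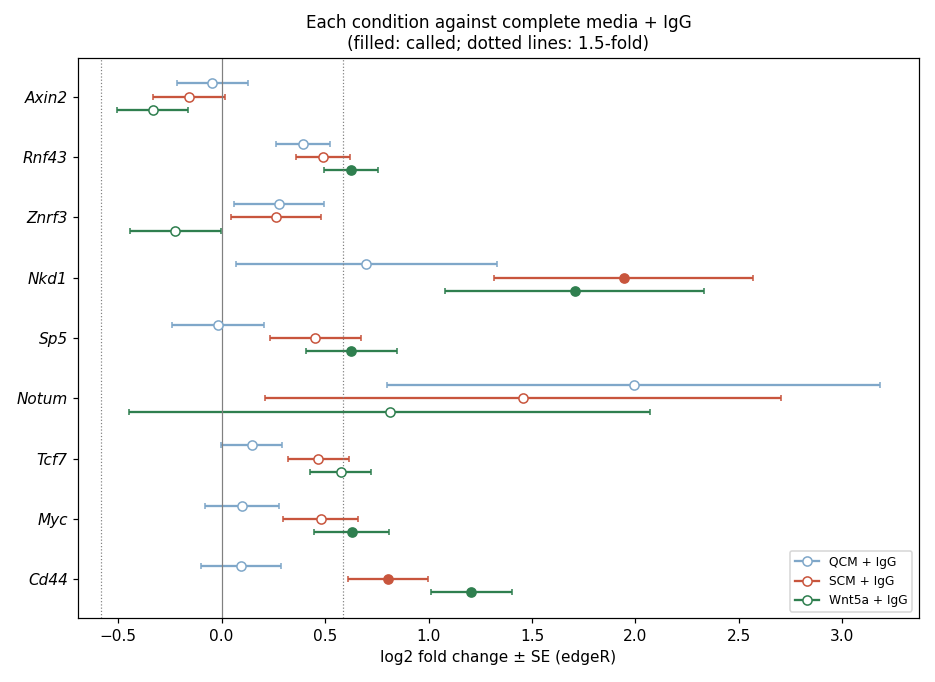
Log2 fold change ± SE from edgeR (horizontal axis) of each tested gene (vertical axis) in QCM + IgG, SCM + IgG and Wnt5a + IgG against complete media + IgG, 6 libraries each, with filled symbols for called genes and dotted lines at 1.5-fold. Cd44 reaches 1.21 with Wnt5a and 0.80 with SCM, while Axin2 lies at or left of 0 in all comparisons.

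Cd44 had the clearest change. Its level in complete media + IgG ranged from 72.0 to 127 CPM (median 121), and in QCM + IgG from 70.6 to 164 (median 117). In SCM + IgG it ranged from 144 to 227 CPM (median 197), and in Wnt5a + IgG from 189 to 367 (median 227). Every SCM + IgG and every Wnt5a + IgG library thus lay above every complete media + IgG library, whereas QCM + IgG overlapped both complete media + IgG and SCM + IgG. Non-overlap of this kind, with the treated libraries higher, was met by 3.76% of all genes with SCM and by 6.85% with Wnt5a. The log2 fold change of Cd44 against complete media + IgG was 1.21 ± 0.19 (SE) with Wnt5a (edgeR, adjusted p = 2.83e-05) and 0.80 ± 0.19 with SCM (edgeR, adjusted p = 0.00493). Both calls held when any library was left out, and without SCM + IgG replicate 1 the change with SCM was 0.74.

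Nkd1 rose by more on the log2 scale but from very few reads. In complete media + IgG its libraries held 2 to 13 counts, which is 0.148 to 1.08 CPM (median 0.403). In SCM + IgG they held 17 to 43 counts and ranged from 1.37 to 3.99 CPM (median 1.94), above every control library. Wnt5a + IgG ranged from 1.06 to 4.08 CPM (median 1.46), and its lowest library fell just below the highest control. The log2 fold change was 1.94 ± 0.63 (SE) with SCM (edgeR, adjusted p = 0.0378) and 1.71 ± 0.63 with Wnt5a (edgeR, adjusted p = 0.0463). Both calls were close to the threshold and depended on single libraries. With SCM the call was lost without SCM + IgG replicate 3, 4 or 5 or complete media + IgG replicate 1, 4, 5 or 6, with log2 fold changes of 1.68 to 1.95 in those fits, and it held without SCM + IgG replicate 1 at 2.04. With Wnt5a it was lost without Wnt5a + IgG replicate 1, 2, 3, 4 or 5 or complete media + IgG replicate 1, 4, 5 or 6, at 1.32 to 1.82, the lowest being without Wnt5a + IgG replicate 5.

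Axin2, another feedback inhibitor in the detected set, is often read as a general reporter of canonical Wnt activity. It ranged from 24.2 to 43.1 CPM (median 31.7) in complete media + IgG, and from 26.1 to 34.9 (median 33.1) in QCM + IgG. In SCM + IgG the range was 22.02 to 41.3 CPM (median 29.2), and in Wnt5a + IgG it was 18.5 to 33.4 (median 26.1). All 4 conditions overlapped. Its log2 fold change against complete media + IgG was -0.33 ± 0.17 (SE) with Wnt5a (95% interval -0.67 to 0.01, edgeR, adjusted p = 0.176) and -0.16 ± 0.17 with SCM (95% interval -0.50 to 0.18, edgeR, adjusted p = 0.623). Axin2 was thus not called in either condition in which other genes of the set were higher. Notum held at most 21 counts in any library, and its means ran from 0.0895 CPM in complete media + IgG to 0.775 CPM in Wnt5a + anti-Ptk7. It passed the filter for testing and was called in 0 of the 7 pairwise comparisons by edgeR, with an unadjusted p of 0.0396 for anti-Ptk7 in Wnt5a, where its adjusted p was 0.297.

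Rnf43 and Znrf3 encode the paired receptor ligases. Rnf43 ranged from 103 to 139 CPM (median 128) in complete media + IgG, from 125 to 187 (median 175) in QCM + IgG, and from 127 to 223 (median 172) in SCM + IgG. In Wnt5a + IgG it ranged from 168 to 213 CPM (median 189), so that no Wnt5a library reached down to a control library. Its log2 fold change was 0.62 ± 0.13 (SE) with Wnt5a (edgeR, adjusted p = 0.000659). That call fell below the 1.5-fold limit at 0.565 without complete media + IgG replicate 6 and at 0.578 with library size alone. With SCM it was 0.49 ± 0.13 (edgeR, adjusted p = 0.0113), past the p threshold but under 1.5-fold, and with QCM 0.39 ± 0.13 (adjusted p = 0.177).

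Znrf3 ranged from 16.03 to 28.3 CPM (median 21.7) in complete media + IgG and from 12.9 to 27.8 (median 18.1) in Wnt5a + IgG. Its log2 fold change was -0.22 ± 0.22 (SE) with Wnt5a (95% interval -0.65 to 0.21, edgeR, adjusted p = 0.521), 0.26 ± 0.22 with SCM (adjusted p = 0.498) and 0.28 ± 0.22 with QCM (adjusted p = 0.67). The Znrf3 libraries of all conditions overlapped. The median number of Rnf43 counts for each Znrf3 count in a library was 5.51 in complete media + IgG, 6.00 in QCM + IgG, 5.97 in SCM + IgG and 6.75 when SCM had the antibody. The median was 10.9 in Wnt5a + IgG, where libraries ranged from 6.29 to 15.3, and 11.2 in Wnt5a + anti-Ptk7, where they ranged from 6.41 to 48.6. The ratio was formed after both genes had been seen and was not tested.

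**Figure D3:**
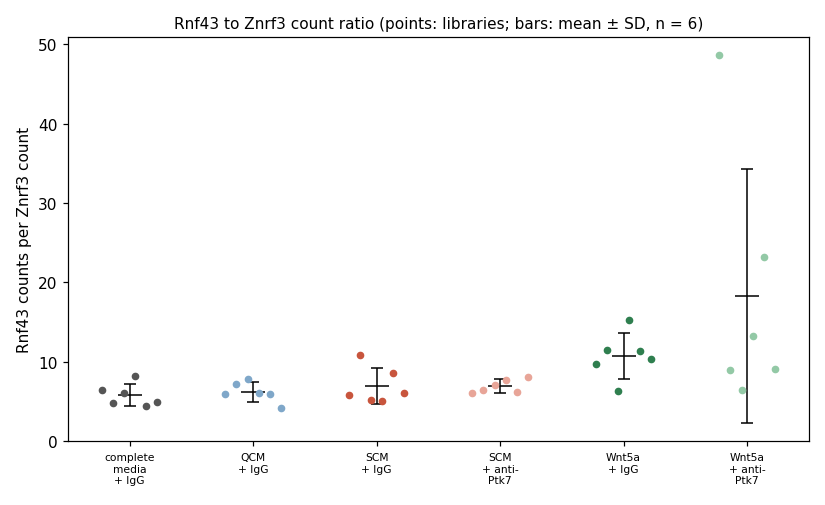
Rnf43 counts per Znrf3 count (vertical axis, linear from 0) for each library in the 6 conditions (horizontal axis), with the mean ± SD of 6 libraries. The medians of the Wnt5a conditions are 10.9 and 11.2, against 5.51 in complete media + IgG, and the highest Wnt5a + anti-Ptk7 library stands at 48.6.

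Of the transcription factors, Sp5 and Tcf7 were both higher with Wnt5a by adjusted p. Sp5 passed 1.5-fold and Tcf7 fell just short. Sp5 ranged from 4.51 to 10.6 CPM (median 7.60) in complete media + IgG and from 6.79 to 16.1 (median 11.8) in Wnt5a + IgG. These ranges overlapped, as did that of SCM + IgG, from 7.79 to 12.8 (median 10.9). The log2 fold change of Sp5 was 0.63 ± 0.22 (SE) with Wnt5a (edgeR, adjusted p = 0.0381) and 0.45 ± 0.22 with SCM (adjusted p = 0.198). The call with Wnt5a was lost without Wnt5a + IgG replicate 1 or 5 or complete media + IgG replicate 3, 4, 5 or 6, at 0.499 to 0.638, and also when only the groups compared were fitted, at 0.616 with adjusted p = 0.0721.

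Tcf7 ranged from 19.2 to 27.8 CPM (median 23.8) in complete media + IgG, from 25.3 to 36.3 (median 33.2) in SCM + IgG, and from 23.5 to 47.9 (median 33.6) in Wnt5a + IgG. In each of these 2 treated conditions the lowest library lay within the control range. The log2 fold change was 0.57 ± 0.15 (SE) with Wnt5a (edgeR, adjusted p = 0.00466) and 0.47 ± 0.15 with SCM (edgeR, adjusted p = 0.0344), both under the 1.5-fold limit. Without SCM + IgG replicate 1 the value with SCM was 0.42 and no longer passed the p threshold (adjusted p = 0.105). With Wnt5a it passed that limit without Wnt5a + IgG replicate 2, 3 or 4 or complete media + IgG replicate 1, at 0.587 to 0.667. Lef1, the other β-catenin partner, gave 54 counts over all 36 libraries, was found in 17 of them and never exceeded 12 counts, so it was left out of the test.

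Myc, the growth regulator, ranged from 95.1 to 143 CPM (median 119) in complete media + IgG and from 108 to 168 (median 120) in QCM + IgG. In SCM + IgG it ranged from 132 to 240 CPM (median 155), and in Wnt5a + IgG from 140 to 285 (median 162). The lowest libraries of both treated conditions fell inside the control range. The log2 fold change was 0.63 ± 0.18 (SE) with Wnt5a (edgeR, adjusted p = 0.011) and 0.48 ± 0.18 with SCM (edgeR, adjusted p = 0.0804). With replicate number as a block the change with SCM was 0.47 ± 0.10, past the p threshold (edgeR, adjusted p = 0.00055) but under 1.5-fold. With Wnt5a the call was lost without Wnt5a + IgG replicate 1, at 0.462 and adjusted p = 0.0717. Without Wnt5a + IgG replicate 5, at 0.578, or complete media + IgG replicate 3, at 0.561, it fell below 1.5-fold. The same held under voom with limma, at 0.548, and with library size alone, at 0.573.

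Conditioned medium from senescent cells was also compared directly with that from quiescent cells, which carries the fibroblast products common to both. By edgeR, 1 of the 8 detected genes was called higher in SCM + IgG, Cd44, where 0.903% of all genes were called and 0.761% called higher. Its log2 fold change was 0.71 ± 0.19 (SE, edgeR, adjusted p = 0.0468), and the libraries of the 2 conditions overlapped. The call was lost without SCM + IgG replicate 1, 2, 4, 5 or 6 or QCM + IgG replicate 2, 3 or 4, with log2 fold changes of 0.603 to 0.735, and was 0.668 without SCM + IgG replicate 1. Nkd1 at 1.24 ± 0.60, Sp5 at 0.47 ± 0.22, Myc at 0.38 ± 0.18 and Tcf7 at 0.32 ± 0.15 had unadjusted p-values from 0.0352 to 0.0443 and adjusted p-values from 0.253 to 0.279 (edgeR). With Cd44 this made 5 of 8 with an unadjusted p below 0.05, against 17% of all genes. With replicate number as a block, Myc passed the p threshold at 0.38 ± 0.10 (edgeR, adjusted p = 0.0112). Rnf43 differed by 0.10 ± 0.13 between the 2 media (95% interval -0.16 to 0.35).

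Between Wnt5a + IgG and SCM + IgG, 0 of 8 genes were called by edgeR, where 0.69% of all genes were, and 2 had an unadjusted p below 0.05, as did 18.9% of all genes. Cd44 was 0.40 ± 0.19 (SE) higher with Wnt5a on the log2 scale (edgeR, adjusted p = 0.244), and 0.38 ± 0.09 higher with replicate number as a block (edgeR, adjusted p = 0.0133). Znrf3 differed by -0.49 ± 0.22, lower with Wnt5a (edgeR, adjusted p = 0.213). The 95% interval of the difference was -0.12 to 0.39 for Rnf43 and -0.20 to 0.50 for Myc. Both intervals held 0 and reached farther towards higher values with Wnt5a.

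Anti-Ptk7 was compared with IgG to ask how far Ptk7 takes part in the responses to SCM and Wnt5a. In SCM, 0 of 8 genes were called by edgeR, where 1.23% of all genes were, and 0 of 8 had an unadjusted p below 0.05, against 17.1% of all genes. In Wnt5a, 0 of 8 were called, where 0.884% of all genes were, and 1 of 8, Myc, had an unadjusted p below 0.05, as did 15% of all genes. The difference between the 2 antibody effects was called for 0 of 8 genes and for 0 of all genes tested by edgeR, a share of 0%, and 602 genes, 3.9% of them, had an unadjusted p below 0.05.

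Myc ranged from 97.1 to 198 CPM (median 130) in Wnt5a + anti-Ptk7, against 140 to 285 in Wnt5a + IgG. Its log2 fold change with the antibody was -0.46 ± 0.18 (SE, 95% interval -0.81 to -0.10, edgeR, unadjusted p = 0.016, adjusted p = 0.191) in Wnt5a and -0.36 ± 0.18 (edgeR, adjusted p = 0.31) in SCM. Matched by replicate number, Myc was lower with the antibody in 6 of 6 pairs in Wnt5a and in 5 of 6 in SCM. Neither effect passed the adjusted threshold in this fit, but both did with replicate number as a block, at -0.44 ± 0.10 in Wnt5a (edgeR, adjusted p = 0.00507) and -0.38 ± 0.10 in SCM (edgeR, adjusted p = 0.0143). Both stayed under the 1.5-fold limit and so were not calls. Cd44 gave -0.29 ± 0.19 in SCM (edgeR, adjusted p = 0.471), lower in 6 of 6 pairs, and 0.03 ± 0.19 in Wnt5a (95% interval -0.35 to 0.40), lower in 3 of 6 pairs. The block gave -0.30 ± 0.09 for Cd44 in SCM (edgeR, adjusted p = 0.0447). The difference between those 2 values was 0.31 ± 0.27 (edgeR, adjusted p = 0.999).

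The other genes had values on both sides of 0 under the antibody. Tcf7 gave 0.25 ± 0.15 (SE) in SCM and 0.18 ± 0.15 in Wnt5a (edgeR, adjusted p = 0.388 and 0.628). Rnf43 gave -0.04 ± 0.13 in SCM and 0.14 ± 0.13 in Wnt5a (edgeR, adjusted p = 0.92 and 0.687). Nkd1 ranged from 0 to 3.26 CPM in SCM + anti-Ptk7, where replicates 1 and 4 held no count, and its log2 fold change there was -0.73 ± 0.59 (95% interval -1.88 to 0.42). Over the 8 genes the change with the antibody had a median of -0.11 for the SCM cultures and -0.10 for the Wnt5a cultures, against 0.00 and 0.01 over all genes tested.

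**Figure D4:**
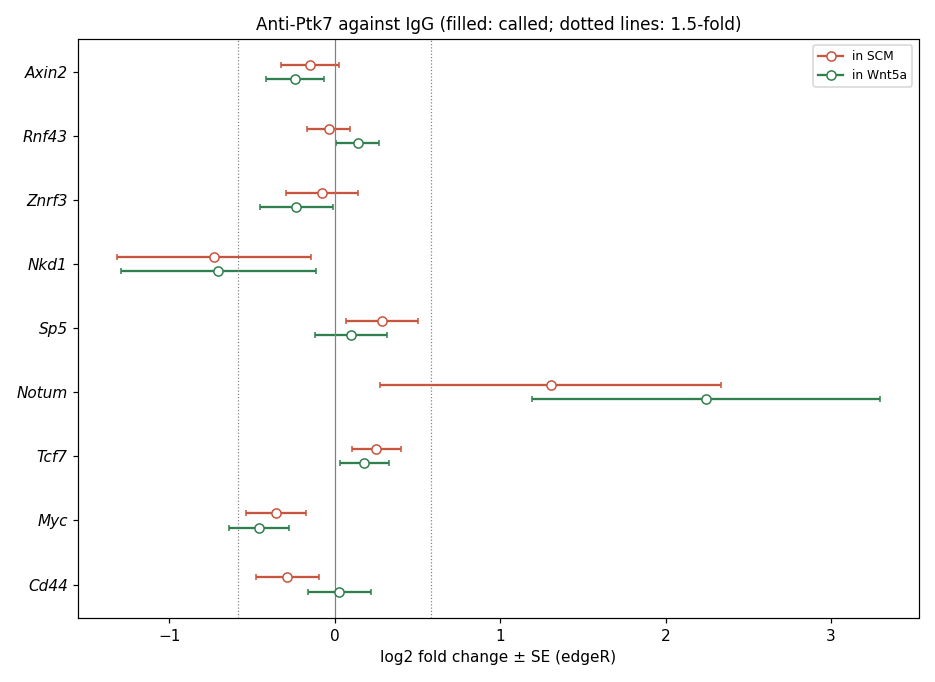
Log2 fold change ± SE from edgeR (horizontal axis) of each tested gene (vertical axis) when anti-Ptk7 replaced IgG, for SCM and for Wnt5a separately, 6 libraries each, with dotted lines at 1.5-fold. No symbol is filled, since no gene was called, and Myc lies at -0.36 and -0.46.

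Within conditions, the genes did not vary as a single block. Over the 36 libraries, after the mean of each condition was removed, Pearson's r was 0.797 between Myc and Cd44, 0.501 between Tcf7 and Myc, and 0.435 between Rnf43 and Myc. Axin2 ran the other way from several of them, with r of -0.402 with Sp5, -0.345 with Cd44 and -0.33 with Myc, and 0.31 with Znrf3. Rnf43 and Znrf3 had r of -0.337. Replicate number was not removed, and libraries numbered 1 deviated together, so the values also hold differences between numbers. These values describe libraries that share culture, preparation and sequencing, and no test was made of them.

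**Figure D5:**
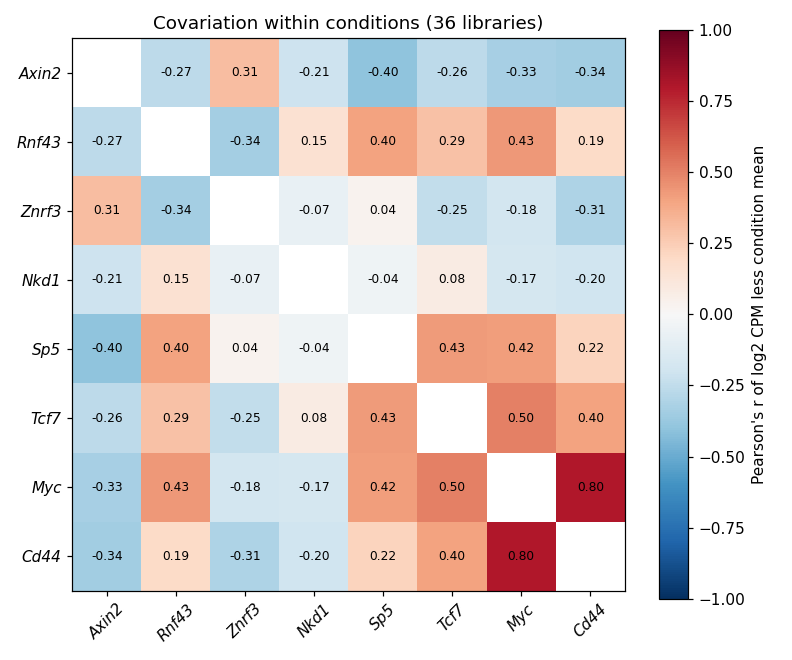
Pearson's r (colour scale and printed values) between each pair of the 8 detected genes (both axes) over 36 libraries, computed on log2 CPM after subtracting the condition means. The Myc and Cd44 cell holds 0.80, and the Axin2 cells with Sp5, Cd44 and Myc are negative.

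By the same measure without removing condition means, the 5 genes most like Axin2 over the 36 libraries were Tbrg4 (r = 0.772), Sesn3 (0.76), Hist1h1b (0.751), Washc1 (0.75) and Loxl3 (0.745). Nkd1 had the widest range of condition means, 1.80 on the log2 scale, and the genes most like it included Nckap5 (0.697), Gmip (0.651), Sowaha (0.646) and Slc29a4 (0.642). Each was picked as the highest of 15496 other genes.

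In the wider pathway, lists chosen by name gave shares of calls to be read against 6.08% of all genes with SCM and 10.2% with Wnt5a. Of 13 other intestinal targets, 12 were tested. With SCM 1 was called, Apcdd1, an inhibitor at the cell surface, which was lower at -1.22 ± 0.39 (SE, edgeR, adjusted p = 0.0376) but not called without SCM + IgG replicate 1, at -1.08 (adjusted p = 0.105), and with Wnt5a 1 was called, Tnfrsf19, a receptor of crypt stem cells, which was higher at 1.47 ± 0.52 (edgeR, adjusted p = 0.0378). An unadjusted p below 0.05 was found for 7 of the 12 with SCM and 6 of the 12 with Wnt5a. These counts stand against 24.7% and 33.1% of all genes tested. Of the targets that were not called, Ascl2 and Sox9, transcription factors of the crypt, passed the p threshold under 1.5-fold, with log2 fold changes of 0.51 ± 0.13 and 0.35 ± 0.09 with SCM (edgeR, adjusted p = 0.00985 and 0.0079) and 0.41 ± 0.13 and 0.46 ± 0.09 with Wnt5a (edgeR, adjusted p = 0.0234 and 0.000305). The intestinal transcription factor gene Cdx1 passed it in the other direction, at -0.30 ± 0.09 with SCM and -0.50 ± 0.09 with Wnt5a (edgeR, adjusted p = 0.0225 and 9.57e-05), and Ephb3, which encodes an ephrin receptor, passed it at 0.49 ± 0.17 with Wnt5a (edgeR, adjusted p = 0.0413). The stem cell receptor gene Lgr5 had -0.54 ± 0.22 with SCM (edgeR, adjusted p = 0.11) and -0.27 ± 0.22 with Wnt5a (edgeR, adjusted p = 0.419). Over the 12 the median change was -0.04 with SCM and 0.28 with Wnt5a. Of 17 cytoplasmic and nuclear components, 16 were tested and Ctnnb1, which encodes β-catenin, was called with Wnt5a, at 0.64 ± 0.09 (edgeR, adjusted p = 3.5e-06), while 0 were called with SCM, where Ctnnb1 at 0.47 ± 0.09 passed the p threshold (edgeR, adjusted p = 0.000502) but not 1.5-fold and was the 1 of 16 with an unadjusted p below 0.05. Of 6 receptors 0 were called by edgeR with SCM or with Wnt5a, and 2 had an unadjusted p below 0.05 in each, against 24.7% and 33.1% of all genes. Of 12 inhibitors 4 were tested, and Apcdd1 with SCM was again the call. With replicate number as a block, Apcdd1 was also called lower with Wnt5a, at -0.99 (edgeR, adjusted p = 0.0339), and the Wnt receptor gene Fzd7 lower with SCM, at -0.63 (edgeR, adjusted p = 0.00508).

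Markers of epithelial cell types moved in the same comparisons. The 6 epithelial markers summed to 5585 to 7280 CPM in complete media + IgG, 8145 to 12139 in SCM + IgG and 9246 to 17124 in Wnt5a + IgG, with Krt8, Krt18 and Krt20 called higher in both and Cdh1 higher with Wnt5a. Krt20, a keratin of differentiated cells, changed most of these, by 1.84 ± 0.39 (SE) on the log2 scale with SCM and 2.26 ± 0.39 with Wnt5a (edgeR, adjusted p = 0.00146 and 8.37e-05). The 5 enterocyte markers summed to 742 to 1304 CPM in complete media + IgG, 1173 to 1641 in SCM + IgG and 758 to 1410 in Wnt5a + IgG, with Alpi and Fabp1 called higher in both and Apoa1 higher with SCM. The 5 Paneth cell markers summed to 3726 to 4317 CPM in complete media + IgG, 3279 to 4440 with SCM and 2022 to 3861 with Wnt5a. Mmp7 and Ang4 were called higher with SCM and with Wnt5a, while with Wnt5a Lyz1 at -0.35 ± 0.12 and Itln1 at -0.36 ± 0.13 passed the p threshold in the other direction (edgeR, adjusted p = 0.0403 and 0.0474). The 4 crypt base stem cell markers summed to 1595 to 2207, 1025 to 1868 and 901 to 2001 CPM in these conditions, with Smoc2 called lower in both, at -0.77 ± 0.17 and -0.67 ± 0.17 (edgeR, adjusted p = 0.00209 and 0.00371). Smoc2 was the most abundant of the 4, and the list had a median log2 fold change of -0.05 with SCM and 0.05 with Wnt5a. Ascl2 and Olfm4 were on the higher side in both, and Lgr5 was on the lower side. Olfm4 averaged 470 CPM in complete media + IgG, 638 in SCM + IgG and 610 in Wnt5a + IgG. Without SCM + IgG replicate 1, each of these marker calls with SCM against complete media + IgG held, with Smoc2 at -0.69 and Krt20 at 1.63. Goblet cell markers summed to 1311 to 1701 CPM in complete media + IgG, 1301 to 1859 in SCM + IgG and 625 to 1620 in Wnt5a + IgG, and enteroendocrine markers to 418 to 574, 378 to 538 and 531 to 628 CPM. Of the 5 goblet and 4 enteroendocrine markers 0 were called by edgeR with SCM or with Wnt5a, and an unadjusted p below 0.05 was found for 0 and 1 goblet markers and for 2 enteroendocrine markers in each. The 8 proliferation markers summed to 1738 to 2001 CPM in complete media + IgG, 1516 to 1719 in SCM + IgG and 1500.5 to 1820 in Wnt5a + IgG. Of these 8 markers 0 were called by edgeR in either comparison, and 3 with SCM and 4 with Wnt5a had an unadjusted p below 0.05, as did 24.7% and 33.1% of all genes.

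The markers also moved in the other comparisons. With QCM, Alpi, Fabp1 and the Paneth gene Ang4 were called higher, at 0.86 ± 0.16, 0.76 ± 0.15 and 0.65 ± 0.14 (SE, edgeR, adjusted p = 0.00443, 0.00718 and 0.00985). With replicate number as a block, Krt20 at 0.82 and Apoa1 at 0.61 were called higher as well (edgeR, adjusted p = 4.49e-06 and 0.00764). In SCM against QCM, where Cd44 was called, the Paneth gene Mmp7 was called higher at 0.68 ± 0.16 (edgeR, adjusted p = 0.022), but not without SCM + IgG replicate 1, at 0.55 (adjusted p = 0.0879). No other marker was called there without the block. An unadjusted edgeR p below 0.05 was found for 6 of 6 epithelial, 3 of 5 Paneth and 2 of 5 enterocyte markers. It was found for 1 of 4 crypt base, 1 of 4 enteroendocrine, 1 of 8 proliferation and 0 of 5 goblet markers. The share of all genes was 17%. The epithelial list had a median log2 fold change of 0.50, against -0.01 over all genes. With the block, Krt8 at 0.64, Krt18 at 0.59 and Krt20 at 1.01 were called higher in SCM than in QCM, and Smoc2 at -0.61 was called lower (edgeR, adjusted p = 1.41e-06, 9.45e-05, 2.69e-08 and 6.03e-06). In Wnt5a against SCM, the enteroendocrine hormone gene Gcg was called higher at 0.63 and Apoa1 lower at -0.76 (edgeR, adjusted p = 0.0109 and 0.0123). Both calls held without SCM + IgG replicate 1, at 0.65 and -0.76 (edgeR, adjusted p = 0.0307 and 0.0345). The block added the goblet gene Clca1, lower at -0.76 (edgeR, adjusted p = 0.0309). Under anti-Ptk7, Lyz1, the lysozyme gene of Paneth cells, was called lower in Wnt5a, at -0.63 ± 0.12 (edgeR, adjusted p = 0.00374). Alpi was called lower with the antibody in Wnt5a, at -0.72 ± 0.16 (edgeR, adjusted p = 0.0104), and in SCM, at -0.59 ± 0.16 (edgeR, adjusted p = 0.0403, or 0.0813 without SCM + IgG replicate 1). The part of these markers in the values of the Wnt genes was not tested.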

How the data were processed

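Bulk RNA libraries of 36 organoid samples were prepared with Smart-Seq V4 and Nextera XT. The authors aligned reads with GSNAP to mm10 and deposited raw counts per gene for each library, counting reads within coding sequence. The annotation and use of strand are not given in the sources used here. A deposited table of the whole series was not used. Counts were matched to symbols and lengths through GENCODE M21, and 29759 of 52636 listed genes had a count. edgeR 4.0.16 (R 4.3.3) was run with filterByExpr, TMM factors (0.908 to 1.03) and a quasi-likelihood fit of 6 condition means, with adjustment over 15497 genes. Calls needed an adjusted p below 0.05 and a 1.5-fold change. SEs are the log2 fold change divided by the root of the F statistic, and 95% intervals are approximate. Log2 CPM used a prior count of 2. The code was tested on simulated data. Alternatives were DESeq2 1.42.0, voom with limma 3.58.1, other scalings and filters, a replicate block and leaving out each library. The list genes without SCM + IgG replicate 1 were an alternative chosen after seeing the data.

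Named genes were the 10 members, list genes called in at least 1 comparison, up to 8 for each list by lowest adjusted p, and the 5 genes most correlated with Axin2 and with the member of widest range. One of the genes most like the member of widest range is not reported here. Lgr5, Olfm4, Ascl2, Sox9, Cdx1, Ephb3, Lyz1, Itln1, Clca1 and Fzd7 were named after their values were seen. The members and lists were chosen with earlier results of these data known. Replicate numbers 1 to 6 were taken to mark the 6 mice, although the labels do not state it. Deviations from condition means correlated at a mean r of 0.092 over 90 same-numbered pairs, 34 of them above 0.1, and at -0.018 over 450 others. By number, all 15 pairs of number 1 (mean r 0.241) and 11 of 15 of number 3 were above 0.1, against 0 of 15 of number 4. Counting error alone is small for genes above 100 CPM and large for Nkd1, Notum and Lef1.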

Additional observations from a re-analysis of the deposited data

Results flagged for a closer look

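In 3 of 48 groups of 6 libraries (the 8 detected genes in each of 6 conditions), 1 library lay farther from the others than Dixon's 95% critical value for the gap allows, and chance gives about 1 in 20. Nkd1 was 4.08 CPM in Wnt5a + IgG replicate 5, with the next library at 2.05. Myc was 199 CPM in SCM + anti-Ptk7 replicate 1, with the next at 131. Cd44 was 419 CPM in Wnt5a + anti-Ptk7 replicate 1, with the next at 273.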

How the results depend on the processing

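The calls of Cd44 with SCM and with Wnt5a against complete media + IgG kept their direction and stayed past the thresholds under all 21 alternatives to each. The number of the 8 detected genes called with SCM went from 2 to 1 with no low-count filter or with at least 10 counts in every library, to 4 with no fold-change cutoff, and to between 1 and 2 when a library was left out. With Wnt5a it went from 5 to 2 under voom with limma, 1 with library size alone, 6 with no fold-change cutoff, 3 with no low-count filter, and between 2 and 5 when a library was left out. For SCM against QCM it went from 1 to 0 with no low-count filter and lay between 0 and 1 when a library was left out. With the replicate block the counts were 2, 5 and 1 in these comparisons and 0 in the others, so the block changed no count of calls of these genes. It did take 6 single values past the p threshold under 1.5-fold, those of Myc and Cd44 given with the results. Causes were not tested, except that the count floor removed Nkd1 from the test and the cutoff admits smaller changes.

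Directions reversed only among small differences that were not called. When a library was left out, log2 fold changes with QCM ran from -0.135 to 0.0293 for Axin2, from -0.223 to 0.0786 for Sp5 and from -0.0452 to 0.189 for Cd44. They ran from -0.0779 to 0.0909 for Znrf3 in SCM against QCM, and from -0.618 to 0.0075 for Nkd1 and -0.0107 to 0.285 for Myc in Wnt5a against SCM. For anti-Ptk7 they ran from -0.116 to 0.0522 for Rnf43 in SCM (0.00621 under voom), and in Wnt5a from -0.0241 to 0.198 for Sp5 and from -0.166 to 0.162 for Cd44. Depth limits Nkd1, Notum and Lef1 most.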
